A study of Culter alburnus with 6 samples.

Results

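In RNA sequencing of a carp relative farmed in fresh water, the topmouth culter Culter alburnus, 100 gene loci stood well above their level in every other library in a single one, cryopreserved replicate 1. The loci were chosen by their measured values. Raw counts were divided by DESeq2 size factors, and loci were kept with 50 raw counts or more in each library but that one, a mean normalized count of up to 15000 over those 5, and a highest value under 2 times the lowest. These conditions were met by 8012 of the 28228 loci in the table, and the 100 with the highest ratio of cryopreserved replicate 1 to the mean of the other 5 were taken. The height of these loci in that library is therefore a property of the choice and is described here without a test.

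The 6 libraries comprise 3 from control animals, titled wt, and 3 from animals given the cryopreservation treatment as embryos, titled treat. The labels name the tissue as embryos, whereas the design text has RNA taken from larvae that grew from cryopreserved embryos. Strain, age at sampling, the number of animals in a library and the way of rewarming (water bath, or laser with gold nanorods) are not stated in the labels. Separate batches of animals are not stated either, so the spread between libraries may be technical. In vitrification an embryo is loaded with cryoprotectants and cooled so fast that its water turns to glass rather than ice. Rewarming must be fast as well, since ice can form on the way up, and gold nanorods serve to turn laser light into heat inside the sample. RNA from whole animals is a sum over all cell types, so that more cells of a type and more RNA per cell cannot be told apart.

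The table identifies loci by tags alone, and the annotation used gives them no gene names. No function can be given to any of them, and markers of tissues, cell types or stress could not be looked up. In the annotation each of the 100 is a protein-coding locus.

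Library totals lay between 26611022 and 30795972 counts, and cryopreserved 1 was the largest. Its size factor, 0.863, was nonetheless the lowest of the 6, followed by 0.890 for control 3, while the others lay between 1.07 and 1.14. These same libraries, cryopreserved 1 and control 3, departed most from the rest in both directions. Of the 8012 loci that met the conditions, 540, or 6.74%, were at least 2-fold above the mean of the other 5 in cryopreserved 1, and 861, or 10.7%, were at or below 0.5 times that mean. The median ratio was 1.01, near 1 as the size factors set it.

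Together the 100 loci took 1.47% of all counts in cryopreserved 1. In the other libraries they took 0.508%, 0.594% and 0.416% in controls 1, 2 and 3, and 0.458% and 0.591% in cryopreserved 2 and 3. The median normalized count of the 100 was 2589.6 in cryopreserved 1, against 659, 718 and 704 in the controls and 620 and 752 in cryopreserved 2 and 3. By these medians the other cryopreserved libraries lay on both sides of the controls. That only the first lay apart was set by the choice.

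**Figure D1:**
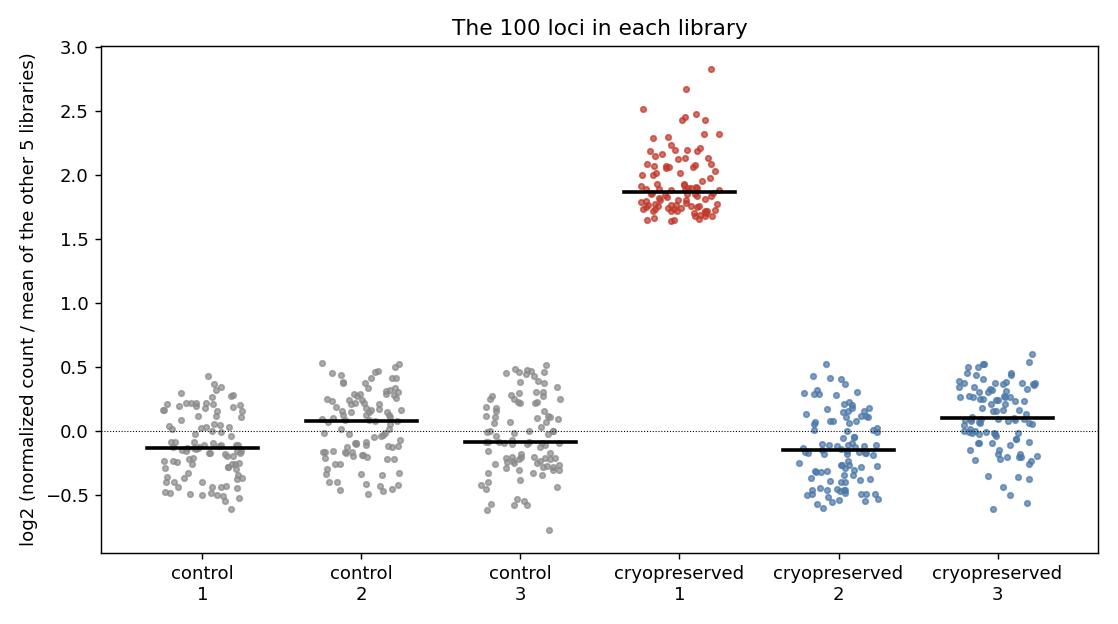
Each point is 1 of the 100 loci in 1 library, as log2 of its normalized count over its mean in the 5 libraries other than cryopreserved replicate 1, and the black bar is the median of the 100. The bar stands at 1.87 in cryopreserved replicate 1 and between -0.15 and 0.10 in the other 5, where all 100 loci were held within a 2-fold range by the choice.

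The ratio of cryopreserved 1 to the mean of the other 5 ran from 3.11 to 7.10, with a median of 3.65 and quartiles of 3.37 and 4.20. It was at least 4 at 33 loci, at least 5 at 7 and at least 6 at 2. Set against the highest rather than the mean of the other 5 libraries, cryopreserved 1 was still 2.18-fold to 5.82-fold higher, and at least 3-fold higher at 48 loci. The standard deviation over the other 5 libraries was 8.86% to 31.4% of the mean, and the value in cryopreserved 1 lay between 7.28 and 41.7 of these standard deviations above it. Both parts of this distance were shaped by the choice, which bounded the spread over the other 5 and ranked the loci by their ratio.

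ABG768_015004 had the highest ratio, 7.10. Its normalized counts were 2499.9, 2636.2 and 1764.8 in controls 1, 2 and 3, and 15348.5, 1743.9 and 2165.0 in cryopreserved 1, 2 and 3. The first cryopreserved library stood alone, while the other 2 fell among the controls or just under them. This locus has 4 annotated proteins, the most of any of the 100, a number shared by 3 of them.

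ABG768_026298, at a much lower level, was second with a ratio of 6.37. Its controls had 93.1, 100.6 and 136 normalized counts, and its cryopreserved libraries 765, 120 and 150. ABG768_006034 followed with 5.72, from 136, 177 and 155 in the controls and 1021.2, 196 and 229.5 in the cryopreserved libraries. For ABG768_006034 all 3 cryopreserved libraries exceeded the controls, but replicates 2 and 3 only by a small part of what replicate 1 did.

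The next 4 loci had ratios from 5.39 to 5.55. ABG768_001921, the scarcest of them, went from a mean of 78.9 ± 14.4 normalized counts (SD, n = 5 other libraries) to 438 in cryopreserved 1. ABG768_005541 went from 1060.9 ± 292 to 5792.3, and ABG768_003804 from 831 ± 204 to 4480.2. ABG768_023104 went from 1064.3 ± 278.5 to 5734.4. These loci span a wide range of levels at nearly the same ratio.

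Ratio and level showed no clear relation among the 100. The mean over the other 5 libraries ran from 55.6 to 8434.5 normalized counts. It was below 100 at 6 loci, with a median ratio of 3.29, from 100 to 1000 at 56 loci, with 3.62, and from 1000 upward at 38 loci, with 3.69. Spearman's rho between ratio and level was 0.06 over the 100 loci, which all share the same 6 libraries. The lowest raw count behind any of these values was 50, and in cryopreserved 1 raw counts ran from 158 to 26870. If such counts are read as fragments, counting error is small beside a 3-fold difference, but whether they can be is not settled. The cut at a ratio of 3.11 limits what a correlation within the 100 can show. In 5 equal classes of the 8012 loci by rising level, the median ratio was 0.909, 0.973, 0.994, 1.07 and 1.08. These classes held 27, 18, 19, 11 and 25 members.

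The 3 most abundant members were ABG768_012212, ABG768_012776 and ABG768_011210. ABG768_012212 had 10149.7, 9354.7 and 8436.3 normalized counts in the controls and 31146.7, 6156.9 and 8075.2 in the cryopreserved libraries. It was thus highest in cryopreserved 1 and lowest in cryopreserved 2 and 3, with every control in between. ABG768_012776 had 6971.7, 8749.4 and 9922.4 in the controls and 30066.3, 6559.7 and 9454.9 in the cryopreserved libraries. ABG768_011210 had 4382.3, 7911.3 and 5599.8, and 29652.5, 4069.5 and 7705.0. In both of these, cryopreserved 2 was the lowest of all 6 libraries.

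**Figure D2:**
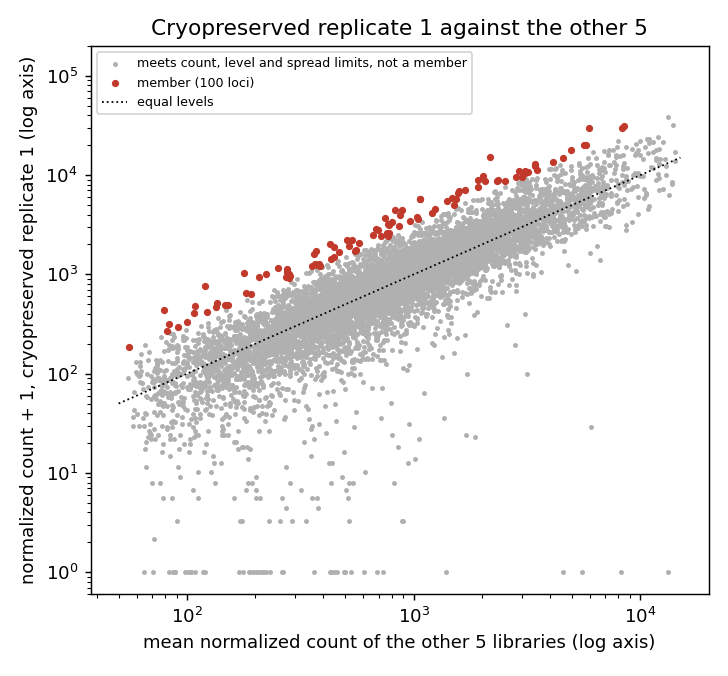
Each point is a locus that met the count, level and spread limits, with its mean normalized count over the 5 other libraries on the x axis and its normalized count plus 1 in cryopreserved replicate 1 on the y axis, both on log axes. The 100 members (red) form the upper edge of the cloud at all levels from 55.6 to 8434.5, and the cloud reaches further below the line of equal levels than above it.

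The lower limit of the choice fell in a continuous series. The last members, ABG768_000781, ABG768_015291 and ABG768_003694, had ratios of 3.13, 3.13 and 3.11. The first loci left outside, ABG768_000611, ABG768_011400 and ABG768_018102, had 3.10, 3.09 and 3.09. No gap in the ratios sets the 100 apart from the loci just below them.

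The 100 are also a small part of what was raised in this library. Of 16397 loci with 50 counts or more in every library but this one, 467 had a ratio at or above that of the last member. The spread condition kept out 364 of them and the level condition alone kept out 3. At all 364 cryopreserved 1 was nevertheless the highest library, and the median spread over the other 5 was 3.74-fold. All 26 loci with a ratio of 8 or more were among those kept out by the spread. By the spread condition the 100 are thus the steadier part of a larger group, not its extremes. Among the 8012 loci that met the conditions they leaned to the less steady. In 5 equal classes of rising spread there were 12, 16, 15, 24 and 33 members.

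The same rule was applied with each other library in the place of cryopreserved 1, to describe how far this library differs. The 100th locus had a ratio of 2.26 for control 3, 1.60 for control 1, 1.51 for control 2, 1.70 for cryopreserved 2 and 1.45 for cryopreserved 3, against 3.11 for cryopreserved 1. The number at least 2-fold above the other 5 was 261 of 8001 loci that met the conditions for control 3 and 7 to 20 of 5423 to 6050 for the remaining 4, against 540 of 8012. In the other direction control 3 departed further, with 1199 loci, or 15.0%, at or below 0.5 times the mean of the other 5, against 861, or 10.7%, in cryopreserved 1 and 17 to 161 in the remaining 4. For those 4 the 2-fold limit had to hold over both cryopreserved 1 and control 3, and fewer loci met it. Their lists are thus not drawn from a set of loci like that of cryopreserved 1 or control 3, which limits the comparison. Single loci could be higher elsewhere, with 55.3 for the first locus in control 1 and 9.09 in cryopreserved 3. None of the 100 loci could occur in the list of another library. At each of them cryopreserved 1 was at least 2.18-fold above every other library, and the rule then excludes a 2-fold spread that includes cryopreserved 1.

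**Figure D3:**
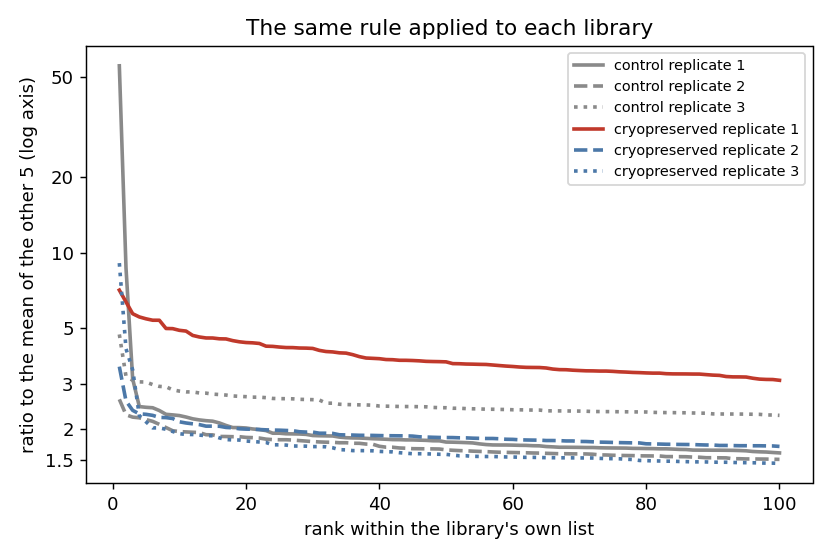
The lines give, for each library in turn, the ratio of that library to the mean of the other 5 (log axis) at the 100 loci where this ratio was highest under the same conditions, ordered by rank. The line for cryopreserved replicate 1 ends at 3.11 and the one for control replicate 3 at 2.26, while the other 4 end between 1.45 and 1.70.

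The study's own contrast is between the cryopreserved and the control group, and it contains the library by which the loci were chosen. With edgeR's quasi-likelihood test on all 6 libraries, 0 of the 100 passed an adjusted p of 0.05, as did 0 of the 21846 loci tested (0%). The adjusted p was 0.999955 for each of the 100. At an unadjusted p under 0.05 with a higher level in the cryopreserved group there were 9 of the 100, against 0.385% of all loci tested. That number was 56 without cryopreserved 2, 24 without cryopreserved 3, 2 without control 3, 1 without control 2, and 0 without control 1 or cryopreserved 1. In the same order, the shares of all loci tested, in either direction, were 1.96%, 1.265%, 1.25%, 1.18%, 0.546% and 0.581%. With all libraries that share was 0.581%. DESeq2 called 5 of 25538 loci, none of them among the 100. It had 17 of the 100 at an unadjusted p under 0.05, against 1.425% of all in either direction, and gave no p for ABG768_015004. For limma-voom 0 loci were called, with 1 of the 100 at an unadjusted p under 0.05, against 0.458% of all in either direction. The choice took loci high in cryopreserved 1 and within 2-fold over the other libraries. The counts of the 100 at an unadjusted p in fits with cryopreserved 1 follow largely from it. They are given as description, and their distance from the shares of all loci is not a result about the 100.

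The fitted log2 fold change between the groups was above 0 for all 100, from 0.53 to 1.66, with a median of 0.95 and a median standard error of 0.57. The median over all loci tested was 0.02. The fold change was at least 1 at 43 of the 100, against 3.66% of all loci tested. Without cryopreserved 2 it was so at 93, against 7.13% of all, and without cryopreserved 3 at 83, against 5.17%. The values of the 100 follow from the choice, since a single library about 3.65-fold up raises the mean of 3. Without cryopreserved 1 the median of the 100 was 0.02 and none reached 1, against 2.69% of all loci tested. The choice held the 100 within 2-fold over those libraries, which leaves almost no room for a value of 1. That none reached it is therefore not a result about the 100.

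ABG768_015004 averaged 2300.3 ± 469 normalized counts over the controls and 6419.1 ± 7735.9 over the cryopreserved libraries (SD, n = 3 each). Its fitted log2 fold change of 1.49 ± 0.79 (SE) became -0.21 ± 0.31 when cryopreserved 1 was left out. ABG768_026298 changed likewise from 1.66 ± 0.74 to 0.32 ± 0.51, and ABG768_006034 from 1.64 ± 0.66 to 0.47 ± 0.44 (SE). At all 100 loci the standard deviation within the cryopreserved group was larger than the difference between the group means, by 1.10 to 3.23 times. The choice largely sets this, since it took loci at which cryopreserved 1 stands far above the other libraries.

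The comparison of cryopreserved 2 and 3 with the 3 controls leaves out the library that chose the loci, although the choice still held each locus within 2-fold over these 5. The mean of cryopreserved 2 and 3 was above the control mean at 50 of the 100 loci and below it at 50, with a median log2 ratio of 0.00 and a range from -0.68 to 0.67. Over all 8012 loci that met the conditions the median was -0.04, and 42.8% were above the control mean. In the edgeR fit without cryopreserved 1, 0 of the 100 passed an adjusted p of 0.05, as did 0% of the 22364 loci tested. At an unadjusted p under 0.05 there were 0 of the 100, against 0.581% of all, but the 2-fold limit over these libraries leaves little room for such a p, and only 1 of the 8012 loci that met it had one. These 0 counts therefore say nothing about the 100. The lowest p among the 100 was 0.058, with edgeR's adjusted p at 0.999995, and the median standard error was 0.37 log2 units. DESeq2 without cryopreserved 1 called 10 loci, none of them among the 100. It had 0 of the 100 at an unadjusted p under 0.05, against 1.01% of all loci tested.

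At 12 of the 100 loci both of these cryopreserved libraries lay above all 3 controls, and at 4 both lay below. Of all loci tested, 3.62% had the former arrangement and 4.89% the latter. Among the 8012 that met the conditions the shares were 3.46% and 6.52%. Because the choice made cryopreserved 1 the highest library at each of the 100, the same 12 also had no overlap between the full groups. That arrangement was seen at 1.57% of all loci tested and at 1.75% of the 8012. In those sets cryopreserved 1 need not be the highest, so their shares cannot be compared with the 12.

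The locus with the lowest p in both fits was ABG768_002126, a member of these 12. It had 575, 551 and 682 normalized counts in the controls, and 3660.6, 961 and 955 in cryopreserved 1, 2 and 3. Cryopreserved 2 and 3 were close to each other and above each control. The fitted log2 fold change was 1.63 ± 0.55 (SE) with all libraries and 0.69 ± 0.31 (SE) without cryopreserved 1. Unadjusted p-values from edgeR were 0.0173 and 0.058, neither of which passed after adjustment. Each is the lowest among the 100 loci, and the first comes from a fit with the library that chose the loci. Both are given as description.

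Within the 2-fold range allowed by the choice, the other 5 libraries were not level. Cryopreserved 3 was the highest of the 5 at 28 of the 100 loci, control 3 at 26, control 2 at 24, cryopreserved 2 at 12 and control 1 at 10. Among all 8012 loci that met the conditions, cryopreserved 3 was the highest at 9.86% and control 2 at 15.5%, and control 3 led with 34.6%. The lowest library was cryopreserved 2 at 33 of the 100, against 19.2% of the 8012.

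The median log2 deviation from the mean of the 5 was 0.08 in control 2 and 0.10 in cryopreserved 3 over the 100 loci, compared with -0.08 in both over the 8012. In control 1, control 3 and cryopreserved 2 it was -0.13, -0.08 and -0.15, compared with 0.01, 0.07 and 0.01. The members thus stood slightly higher in a control and a cryopreserved library and slightly lower in the rest, across the group labels.

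Control 2 and cryopreserved 3 were both above the other 3 libraries at 24 of the 100 loci, among them ABG768_011210 and ABG768_010983, and both below them at 8. Among the 8012 loci the shares were 10.5% and 25.5%. ABG768_010983 had 1668.1, 2695.8 and 1698.5 normalized counts in the controls and 9899.2, 1443.8 and 2637.2 in the cryopreserved libraries. Its values in control 2 and cryopreserved 3 were nearly the same, as were those in control 1 and control 3. Over the 8012 loci, the ratio of cryopreserved 1 to the other 5 had a median of 1.44 where control 2 and cryopreserved 3 were both above the other 3, and of 0.777 where they were both below.

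The members tended to be long. Locus span, from the first to the last annotated base with introns included, had a median of 15569 bases in the 100 and 11466 bases in the 8012. With the 8012 ordered by span and cut into 5 equal classes, those from short to long held 13, 15, 19, 21 and 32 members. The longest class starts at 28099 bases, and 2.0% of its loci were members, against 0.811% of the shortest class, which ends at 5247 bases. All loci showed the same slope to a degree, since the median ratio was 0.820 in the shortest class and 1.13 in the longest. Spearman's rho between ratio and span was 0.22 over the 8012 loci and 0.14 within the 100. The part of this slope in the choice of the 100 was not tested.

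**Figure D4:**
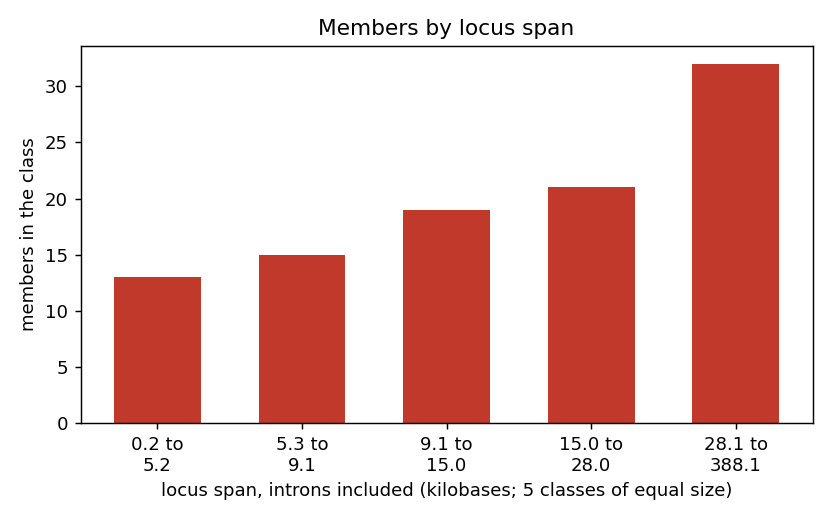
Bars give the number of the 100 members in each of 5 equal-sized classes of locus span, in kilobases, from the shortest class of up to 5247 bases on the left to the longest of 28099 bases and more on the right. The numbers are 13, 15, 19, 21 and 32.

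Length and the pattern over the other libraries went together. The 24 members with control 2 and cryopreserved 3 above the other 3 libraries had a median span of 28663 bases, and the remaining 76 had 14368 bases. Among the 8012 loci those with that pattern had a median of 18541 bases. Members of every length occurred, however, from ABG768_027225 with 366 bases to ABG768_013766 with 174767 bases. ABG768_027225, the shortest, had 213, 222 and 219 normalized counts in the controls and 1146.4, 224 and 382.5 in the cryopreserved libraries. ABG768_013766, the longest, had 4177.0, 7724.2 and 5058.4 in the controls and 20076.7, 4294.4 and 6954.0 in the cryopreserved libraries.

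More than 1 annotated protein was recorded for 19 of the 100 loci and for 10.2% of the 8012. Of the 19, 15 had 2 proteins, 1 had 3 and 3 had 4. The deposited values are counts per locus, and give no measure of the single transcripts.

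The members were spread over the genome. They lay on 23 of the 24 annotated sequences that hold any of the 8012 loci, with at most 9 on one sequence, which held 404 of the 8012. Neighbouring positions in the annotation were taken by 3 pairs of members, so that 94 of the 100 had no member beside them. How many such pairs other sets of 100 from the 8012 loci would hold is not given here. The 3 pairs are thus described without a reading as few or many.

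The first pair, ABG768_026808 and ABG768_026809, ranked 12th and 9th. ABG768_026808 was the steadiest of all members outside cryopreserved 1, with 479, 423 and 399 normalized counts in the controls, 450 and 386 in cryopreserved 2 and 3, and 2004.2 in cryopreserved 1. ABG768_026809 had 1037.9, 795 and 683 in the controls, and 4453.5, 1198.6 and 747 in cryopreserved 1, 2 and 3. The following locus was not raised, with a ratio of 0.231, and the preceding one had 1.68.

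The second pair, ABG768_010859 and ABG768_010860, differed in level. ABG768_010859 had 102, 80.1 and 112 normalized counts in the controls and 293, 76.1 and 86.2 in the cryopreserved libraries, a ratio of 3.21. ABG768_010860 had 1767.6, 1704.1 and 1803.0 in the controls and 7628.4, 2361.0 and 1928.4 in the cryopreserved libraries, a ratio of 3.99. The third pair, ABG768_015290 and ABG768_015291, had similar spans of 4573 and 4551 bases and ratios of 3.25 and 3.13. In ABG768_015290 cryopreserved 2 was the second highest library, at 405 against 916 in cryopreserved 1, and in ABG768_015291 it was control 1, at 669 against 1723.7. Whether the loci of a pair are near-identical copies that share reads was not checked, since no sequence was used here. Whether their annotated positions overlap is not given here. The strand setting of the counts is not given either, so reads of neighbours that do overlap could not be told apart.

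**Figure D5:**
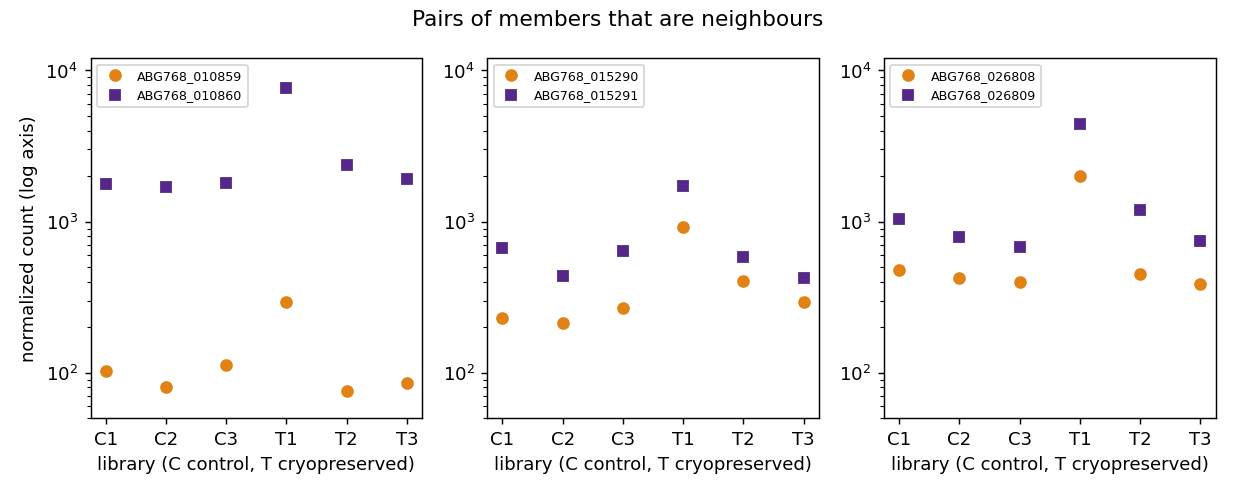
Normalized counts (log axis) of the 3 pairs of members that are neighbours in the annotation, in controls C1 to C3 and cryopreserved libraries T1 to T3, with 1 panel for each pair. In all 6 loci the highest point is T1, at 293 to 7628.4 normalized counts.

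Beyond these pairs, the loci next to a member that were not members themselves and reached the same count minimum numbered 148. Their median ratio was 1.04, compared with 0.974 over all 16397 loci of that depth. It was at least 2 at 20 of them, or 13.5%, compared with 10.2%, and at most 0.5 at 19, or 12.8%, compared with 16.7%. Neighbours went either way at single members. ABG768_006034 lay between loci with ratios of 0.520 and 0.552, and ABG768_001921 between loci with 0.342 and 0.552. ABG768_011210 lay between loci with 1.87 and 3.29, and ABG768_007318, named for its neighbours after their values were seen, between loci with 3.07 and 4.29. Of the 61 members with enough counts on both sides, 3 had a ratio of at least 2 at both neighbours and 1 had at most 0.5 at both. The same shares over all loci with enough counts on both sides are not given here, so these numbers are not a result about the members.

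The size of the ratios, though not their direction, depended on the scaling. With library totals in place of size factors the median ratio of the 100 was 2.73, since cryopreserved 1 has the largest total and the smallest size factor. For ABG768_015004 the ratio was 5.24 on that scale. The number of the 100 with a fitted log2 fold change of at least 1 between the groups was then 16 in place of 43. Over all loci tested the share was 2.53% in place of 3.66%.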

How the data were processed

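Total RNA was extracted with Trizol, mRNA was taken on poly-T beads and Illumina sequencing followed random priming of cDNA, per the labels' protocols. The authors deposited raw read counts per locus in 6 libraries. Aligner, counter, build and strand setting were not given in the sources used here. Columns were matched to samples by title. All 28228 locus tags occur in the annotation of ASM4018292v1, whose symbols repeat the tags, and it was used for order, span, biotype and number of proteins. Counts from 1 to 20 were even in 59.9% to 68.5% of cases, depending on the library, so counts this low cannot be read as fragments. Of the 600 counts of the 100 loci, 49.5% were even. Those counts are 50 or more, where parity is a weak guide, so whether they can be read as fragments is not settled.

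Size factors were DESeq2's median of ratios. All loci were tested with edgeR 4.0.16 (quasi-likelihood, TMM, default filter, group as the single term, R 4.3.3), adjusted by Benjamini-Hochberg at 0.05, with 6 libraries and without cryopreserved replicate 1. A standard error is the log2 fold change over the square root of F. DESeq2 1.42.0, limma-voom (limma 3.58.1), other scalings, other filters, a replicate block and leaving out each library were alternatives. The fits were tested on simulated counts. That simulation gave all loci the same dispersion and set no library apart, so it does not show how the fits act on data such as these. Python 3.11.15 with scipy 1.17.1 gave the descriptions. The loci and these choices were made with earlier results of these data known. Loci named are the 12 highest ratios, the 3 highest levels, those around the 100th rank and neighbouring members, and 3 further loci, the shortest, the longest and ABG768_007318, chosen after their values were seen.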

Additional observations from a re-analysis of the deposited data

How the results depend on the processing

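Of the 100 loci, 0 were called in the group contrast under every alternative with 2 or more libraries in each group, with and without cryopreserved replicate 1. Over all loci DESeq2 called 5 with that library and 10 without it, while every other such alternative called 0. The choice held the 100 within 2-fold over the other 5 libraries and set 1 library apart. Their 0 counts are therefore not a result about the 100. The median fitted log2 fold change of the 100 was 0.65 to 1.29 under the alternatives that kept cryopreserved replicate 1. Without that library it was 0.02 in the main fit. It then ran from -0.13 with cryopreserved replicate 3 also left out to 0.17 with cryopreserved replicate 2 also left out. Leaving out 1 library at a time, that of ABG768_015004 ranged from -0.21 without cryopreserved replicate 1 to 1.93 without cryopreserved replicate 2. The median ratio, 3.65 as reported, was 2.73 with library totals and 3.48 with upper-quartile scaling. It was 3.58 to 3.76 when 1 of the other 5 libraries was left out of the mean. A changed rule kept between 85 and 97 of the 100 under 5 settings, but 66 with library totals, 21 with a spread below 1.5, 45 with a spread below 3, and 62 to 84 without 1 of the other 5 libraries. With library totals and the tighter spread, each lost locus no longer met the conditions, whereas with the wider spread all 100 still met them and others ranked higher. The cause of the remaining shifts was not tested. With the replicate block, 0 of the 100 were called, and 2 had an unadjusted p under 0.05 with edgeR against 9 without it. Over all loci tested, in either direction, the share was 0.343% with the block and 0.581% without it. Deviations of same-numbered libraries had correlations of -0.14, -0.38 and -0.05 for numbers 1, 2 and 3, and the labels state no pairing.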
